A study of Mus musculus with 15 samples.

Results

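The genes described are those of the collagen chains, chosen by symbol as every row of the deposited expression table named Col, a type number, the letter a and a chain number. There were 44 such genes among the 42807 rows of the table. Of them, 31 passed the filter on low counts and were tested, among 14461 genes tested in all. The libraries came from C2C12, an established line of mouse myoblasts that stop dividing and fuse into long multinucleated myotubes when serum is lowered. The cells had differentiated for 6 days and were then held for 24 h under 1 of 5 conditions, with 3 libraries in each, 15 in all. The 5 groups were non-treated cells, a vehicle control of 0.1% DMSO, and 3 doses of the herbal decoction Jakyak-gamcho-tang (JGT). The doses were 20, 100 and 500 µg/mL, called JGT 20, JGT 100 and JGT 500 below. JGT was made by extracting the roots of peony and licorice in hot water. The top dose was the concentration calculated to leave 80% of myotubes viable. From the described stock of 10 mg/mL in 2% DMSO, the doses would carry 0.004%, 0.02% and 0.1% DMSO, so that only JGT 500 would match the vehicle. The sources used here do not say whether DMSO was made up to the same level. The comparisons ask how myotubes respond to rising doses of JGT, which may bring rising DMSO with them.

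Collagens are extracellular matrix proteins of 3 α chains wound into a triple helix, and the α chains of a type are encoded by separate genes. Fibrillar collagens (types I, II, III, V, XI, XXIV and XXVII) form the cords of connective tissue, type IV forms the sheet-like network of basement membranes, and type VI forms beaded filaments beside the membrane. In skeletal muscle these layers wrap each fibre, and loss of type VI chains causes inherited muscle disease in humans. Smaller classes are the network formers VIII and X, the FACIT collagens that sit on fibrils (such as XII, XIV and XVI), the transmembrane collagens (XIII, XVII, XXIII and XXV) and the multiplexins XV and XVIII. Each chain is hydroxylated and folded in the endoplasmic reticulum, exported, trimmed and cross-linked outside the cell.

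Libraries held between 26012844 and 36854199 counts (median 29613890). Myotube markers were expressed in every group: the summed level of 16 such genes was 25004 to 26532 CPM (counts scaled to a common library size) in vehicle and 24632 to 26638 CPM in JGT 500. The JGT 500 libraries were the least alike: chi-square between 2 of them averaged 8.50 to 35.7 over genes, against 2.01 to 4.14 for 2 vehicle libraries. It was 3.53 to 9.51 in non-treated cells, 2.69 to 7.08 at JGT 20 and 3.93 to 6.73 at JGT 100. JGT 500 replicate 2 lay apart from replicates 1 and 3, at 17.5 on the first principal component where they lay at 37.2 and 39.4, so the count of collagen genes called at that dose, and the changes of the called ones against vehicle, are also given without it. Marker and gene list values include it unless stated. The 6 control libraries carry sample codes of another series than the 9 JGT libraries, and a difference between JGT and control cannot be told apart from this code series. Differences between doses are free of it. Whether replicate libraries came from separate cultures is not stated in the labels, so p-values measure only how far these libraries differ, and that may be technical spread.

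At the top dose most of the tested collagen genes differed from vehicle, and the family did not move as a block. Of 31 tested genes, 15 fell and 5 rose at JGT 500, and 11 were not called, by edgeR's quasi-likelihood test at a Benjamini-Hochberg adjusted p below 0.05 over all tested genes. The same test called 16.8% of all tested genes lower and 16.5% higher. The median log2 fold change was −0.27 over the collagen genes and 0.01 over all tested genes. The genes that fell were Col1a1, Col1a2, Col5a1, Col5a3 and Col11a1 of the fibrillar class, Col4a5 of basement membranes, Col6a1, Col6a2 and Col6a3 of beaded filaments, Col8a1 and Col8a2 of hexagonal networks, the FACIT genes Col12a1 and Col16a1, the transmembrane Col23a1 and the multiplexin Col18a1. The genes that rose were the fibrillar Col3a1 and Col5a2, the transmembrane Col13a1 and Col25a1, and Col10a1. Without JGT 500 replicate 2, 14 fell, with Col4a5 lost, and 5 rose, with Col10a1 lost and Col11a2 gained. In bulk RNA, fewer cells of a type and less RNA per cell cannot be told apart.

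**Figure D1:**
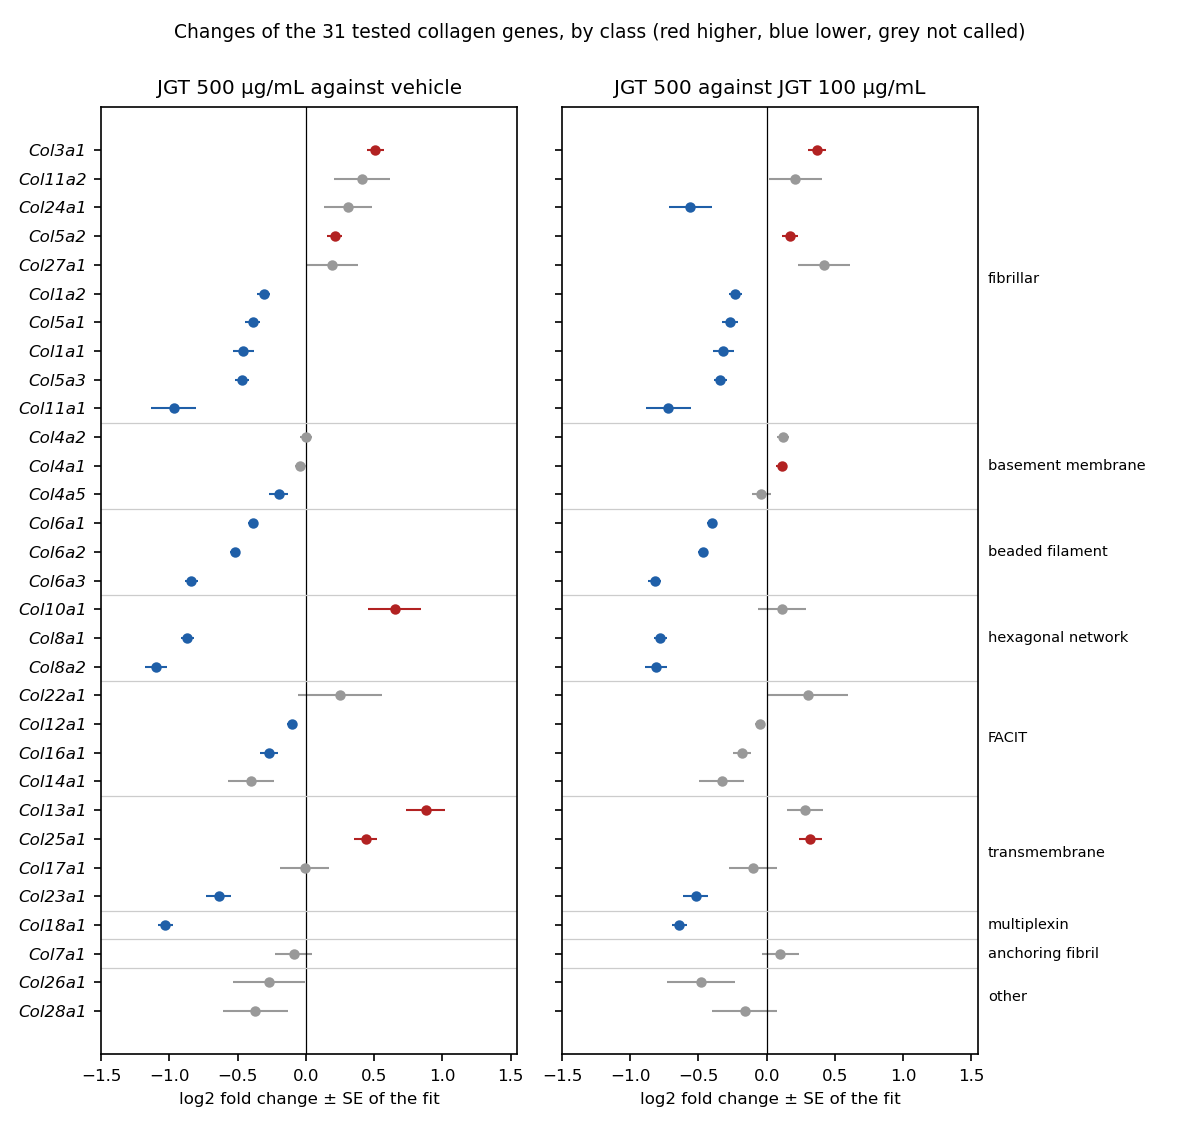
Log2 fold change of each of the 31 tested collagen genes, with bars of 1 SE of the fit, for JGT 500 against vehicle (left) and JGT 500 against JGT 100 (right), grouped by class. Red points were called higher (5 left, 4 right), blue points lower (15 left, 13 right) and grey points were not called.

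The share of all counts taken by the collagen family overlapped between every group and vehicle, while Col3a1 took a larger part of it at JGT 500. Collagen genes took 1.17 ± 0.0199% of counts in vehicle (SD, n = 3), 1.19 ± 0.043% in non-treated cells, 1.18 ± 0.0277% at JGT 20, 1.14 ± 0.053% at JGT 100 and 1.16 ± 0.108% at JGT 500. Within JGT 500 the share was 1.04% in replicate 2, against 1.22% and 1.23% in replicates 1 and 3. With Col3a1 left out, the share of all other collagen genes was 0.868 ± 0.0148% in vehicle, 0.817 ± 0.0334% at JGT 100 and 0.731 ± 0.0616% at JGT 500. Col3a1 alone made up 25.6 ± 0.151% of collagen counts in vehicle, 26.8 ± 0.821% at JGT 20, 28.6 ± 0.794% at JGT 100 and 37.0 ± 1.23% at JGT 500. The JGT 500 and vehicle libraries overlapped in the total share and did not overlap in the other 2 measures. No test was made of these shares, since an exact permutation test of 3 against 3 libraries cannot give a p below 0.1.

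**Figure D2:**
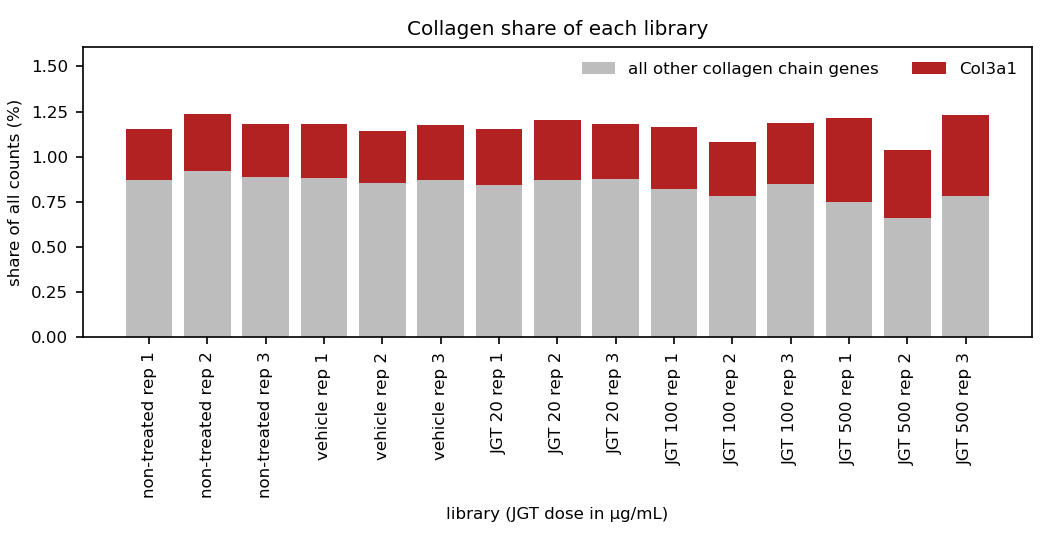
Percent of all counts taken by collagen genes in each of the 15 libraries, stacked as Col3a1 (red) and all other collagen genes (grey). The total is 1.04 to 1.24% in every library, and the red part is larger in the 3 JGT 500 libraries than in the others.

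Levels of different genes were set side by side per kilobase, as CPM per kilobase of the longest annotated coding transcript. Col3a1 was the most abundant chain in vehicle at 538 ± 8.91 CPM per kilobase. Next came both type I chains, Col1a2 at 302 ± 3.32 and Col1a1 at 227 ± 4.92 CPM per kilobase, and the type V chains Col5a2 at 169 ± 4.30 and Col5a1 at 147 ± 2.09. Col6a1 followed at 113 ± 0.326, and then came Col4a1 at 69.8 ± 1.19. Col12a1 at 64.2 ± 3.00, Col6a2 at 62.4 ± 0.801 and Col4a2 at 60.4 ± 2.33 were next. In this order Col12a1 and Col6a2 differed by less than the larger SD, as did Col6a2 and Col4a2, while the neighbours among the first 7 genes differed by more than their SDs. Col8a1 at 44.7 ± 2.06, Col6a3 at 39.0 ± 0.602 and Col5a3 at 33.0 ± 0.644 CPM per kilobase came after these. At JGT 500 the order of the leading chains differed: Col5a2 was at 195 ± 19.7 CPM per kilobase, above Col1a1 at 166 ± 22.6, the reverse of vehicle. These means differed by more than either SD, and the difference was not tested. Col8a1 and Col6a3 were at 24.5 ± 1.47 and 21.8 ± 1.47 CPM per kilobase at that dose.

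Among the fibrillar genes, Col3a1 and Col5a2 rose at JGT 500 while Col1a1, Col1a2, Col5a1, Col5a3 and Col11a1 fell. Col11a2, Col24a1 and Col27a1 were not called against vehicle, but Col11a2 was called higher without JGT 500 replicate 2 (0.57, adjusted p = 0.0244) and Col24a1 without replicate 3 (0.48, adjusted p = 0.0368). Type III collagen, encoded by Col3a1, is a homotrimer found with type I in extensible tissues. The level of Col3a1 was 3018, 2935 and 3024 CPM in vehicle replicates 1, 2 and 3, and 4628, 3725 and 4414 CPM in JGT 500. Every JGT 500 library lay above every vehicle library, with replicate 2 the lowest of the 3. The log2 fold change was 0.51 ± 0.0649 (SE of the fit), a 1.42-fold rise with an adjusted p of 7.91e-06. Without JGT 500 replicate 2 it was 0.59 (adjusted p = 7.52e-11). At the lower doses it stood at 3089, 3319 and 3082 CPM (JGT 20) and 3442, 3064 and 3398 CPM (JGT 100), without a call against vehicle. All libraries of both doses nevertheless lay above every vehicle library. Col3a1 was called higher at JGT 100 in 1 of 13 alternative settings. Counts of Col3a1 were not whole numbers in any of the 15 libraries, which happens where estimation shares reads out between features, so its level is less certain than that of chains with whole counts.

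Col5a2 encodes the α2(V) chain, which pairs with α1(V) in the type V heterotrimer that helps to start fibrils. Its level was 1147, 1089.9 and 1118 CPM in vehicle and 1340.5, 1142 and 1387 CPM in JGT 500. The groups overlapped, because JGT 500 replicate 2 lay among the vehicle libraries. The log2 fold change was 0.21 ± 0.0572 (adjusted p = 0.00922). The call was lost without JGT 500 replicate 1 (0.17, adjusted p = 0.0533), without replicate 3 (0.15, adjusted p = 0.0610) and with only the 2 groups in the fit (0.21, adjusted p = 0.0586). The change without JGT 500 replicate 2 was 0.28 (adjusted p = 4.54e-06). In non-treated cells the level was already 1165, 1226 and 1215 CPM, and against these libraries the change at JGT 500 was 0.10 and not called (adjusted p = 0.192).

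The partner chains went the other way. Col1a1 and Col1a2 encode the α1 and α2 chains of type I collagen, the main collagen of tendon, bone and skin. Col1a1 stood at 1373, 1315 and 1353 CPM in vehicle and at 1013, 835 and 1097 CPM in JGT 500. The groups did not overlap and the log2 fold change was −0.46 ± 0.0772 (adjusted p = 3.35e-04). Col1a2 stood at 1629, 1594 and 1615 CPM in vehicle and at 1335, 1174 and 1393 CPM in JGT 500, again without overlap. Its log2 fold change was −0.31 ± 0.050 (adjusted p = 6.94e-05). Replicate 2 of JGT 500 was lowest for both genes, and without it the changes were −0.36 (Col1a1, adjusted p = 4.31e-06) and −0.25 (Col1a2, adjusted p = 1.19e-05).

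Col5a1, which encodes the α1(V) partner of Col5a2, was at 1249.8, 1219 and 1249 CPM in vehicle and at 958, 838 and 1038 CPM in JGT 500. The log2 fold change was −0.39 ± 0.0564 (adjusted p = 2.40e-05), with no overlap between the groups. Exons of Col5a1 overlap 2 transcripts on the opposite strand, 2810430I11Rik and Gm13372, and the sources used here do not say whether counting used strand. Col5a3, encoding the third type V chain, was at 206, 198 and 202 CPM in vehicle and 149.7, 133 and 155 CPM in JGT 500. Its log2 fold change was −0.47 ± 0.0496 (adjusted p = 3.25e-07). Col11a1, a cartilage fibril chain, was low throughout, at 3.18, 2.55 and 3.88 CPM in vehicle and 1.70, 1.49 and 1.73 CPM in JGT 500. It had the largest fibrillar fall, −0.97 ± 0.165 on the log2 scale (adjusted p = 1.22e-04), and none of the JGT 500 values reached those of vehicle. Leaving out JGT 500 replicate 2, the log2 fold changes were −0.32 for Col5a1, −0.41 for Col5a3 and −0.91 for Col11a1, and each was still called.

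**Figure D3:**
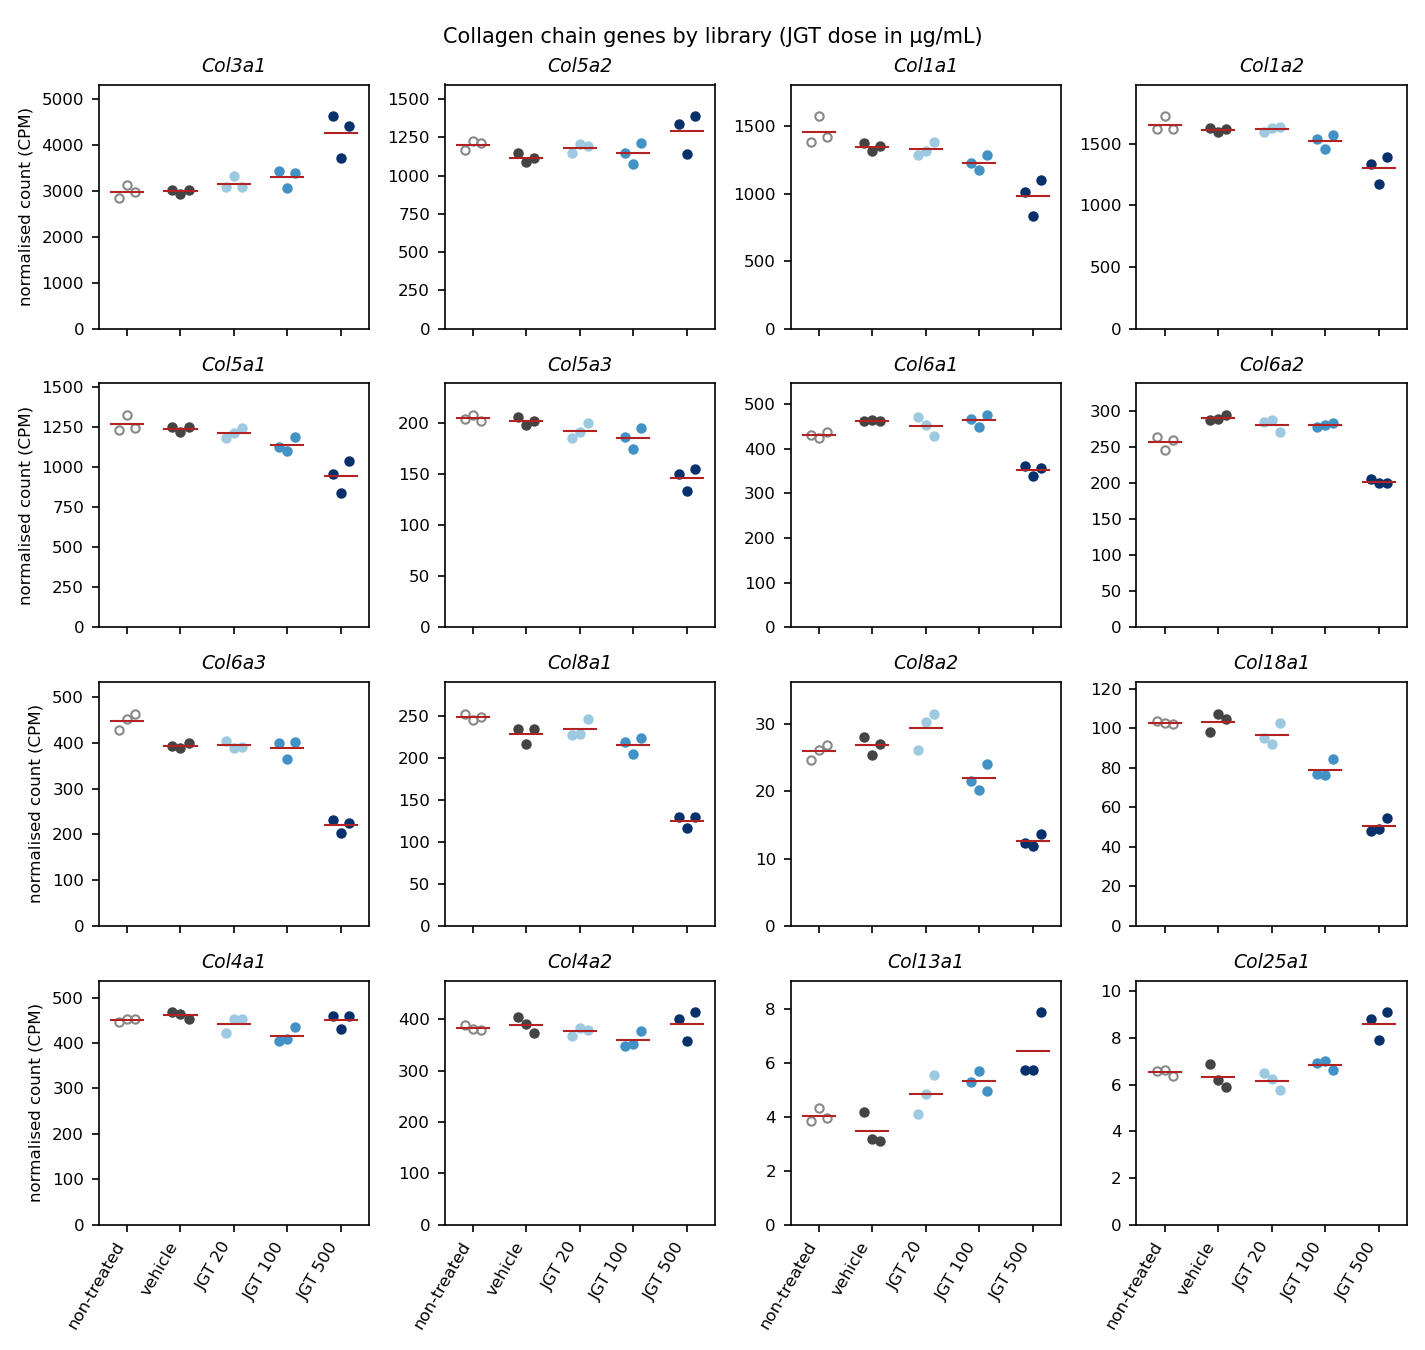
Normalised count (CPM, linear axis from 0) of 16 collagen genes in each library, by group; each dot is a library and each red line the mean of 3. Col3a1, Col13a1 and Col25a1 are highest and the Col1, Col6, Col8 and Col18a1 panels lowest in JGT 500, while Col4a1 and Col4a2 overlap with vehicle.

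The 2 fibrillar genes that rose are neighbours. On the mouse genome GRCm38, Col3a1 lies on chromosome 1 at 45311538 to 45349706 on the plus strand and Col5a2 at 45374321 to 45503282 on the minus strand. They lie tail to tail with 24614 bases between them. Col1a1 lies on chromosome 11 (94936224 to 94953042, plus strand), Col1a2 on chromosome 6 (4504814 to 4541544, plus strand) and Col5a1 on chromosome 2 (27886425 to 28039514, plus strand). RefSeq start-site windows, from 250 bases before to 50 after the start (GRCm38.p6), are shown for 3 genes: Col3a1, which rose, and Col1a2 and Col5a1, which encode chains of associated fibrils and fell. Each is written 5′ to 3′ on the strand of its gene, all plus here, at chr1:45311288-45311587, chr6:4505368-4505667 and chr2:27886175-27886474. Capitals mark the CCAAT motif, the TATAAA motif and the GGGCGG motif, read on either strand. A match on the other strand is printed as its reverse complement.
Col3a1: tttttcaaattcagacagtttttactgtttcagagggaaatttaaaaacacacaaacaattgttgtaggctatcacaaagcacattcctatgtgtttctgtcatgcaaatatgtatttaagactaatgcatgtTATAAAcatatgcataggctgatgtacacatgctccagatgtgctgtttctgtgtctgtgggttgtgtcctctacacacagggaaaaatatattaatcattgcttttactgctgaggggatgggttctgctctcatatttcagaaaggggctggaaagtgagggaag
Col1a2: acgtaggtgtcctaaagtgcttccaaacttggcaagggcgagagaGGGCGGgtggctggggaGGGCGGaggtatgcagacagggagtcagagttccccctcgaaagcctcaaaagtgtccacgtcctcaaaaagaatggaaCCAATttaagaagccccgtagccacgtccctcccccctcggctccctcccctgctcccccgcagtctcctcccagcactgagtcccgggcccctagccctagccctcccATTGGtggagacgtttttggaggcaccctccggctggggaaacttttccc
Col5a1: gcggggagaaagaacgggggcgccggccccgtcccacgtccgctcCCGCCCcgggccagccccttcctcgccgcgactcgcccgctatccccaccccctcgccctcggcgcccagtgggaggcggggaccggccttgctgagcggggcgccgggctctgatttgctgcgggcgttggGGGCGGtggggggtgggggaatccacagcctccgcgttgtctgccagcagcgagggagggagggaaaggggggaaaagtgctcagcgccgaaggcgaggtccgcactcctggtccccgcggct
The Col3a1 window held TATAAA at −117 (the start base counted as 0), no CCAAT and no GGGCGG, and 37.7% of its bases were G or C. The Col1a2 window held CCAAT at −109 and, on the other strand, at 0, with GGGCGG at −205 and −188, and was 61.0% G and C. The Col5a1 window held GGGCGG at −73 and, on the other strand, at −205, and was 75.0% G and C. These matches are a description of letters in the windows. Over all collagen genes, 38 windows of 35 genes were given, and GGGCGG was in 23 of them (60.5%), against 35.7% of all 32851 windows. CCAAT was in 13 (34.2%, against 37.4% of all windows) and TATAAA in 5 (13.2%, against 13.6%). Of 4 more motifs searched on both strands, CAGAC was in 20 (against 49.6% of all windows), GCGTG in 10 (against 32.4%), TGACNNNGC in 7 (against 12.4%) and TGANTCA in 1 (against 7.81%).

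Ratios between chains that meet in a fibril or a trimer carry the same changes free of library depth. The ratio of Col3a1 to Col1a1 counts was 2.20, 2.23 and 2.24 in vehicle and 4.57, 4.46 and 4.03 in JGT 500. All 3 JGT 500 libraries lay above the 12 others, and replicate 2, which was low for both genes, sat among its group in the ratio. The mean was 2.05 ± 0.0596 in non-treated cells and 2.22 ± 0.0203 in vehicle. It was 2.39 ± 0.147 at JGT 20, 2.69 ± 0.0988 at JGT 100 and 4.35 ± 0.288 at JGT 500. The ratio of Col5a1 to Col5a2, chains of the same trimer, was 1.09, 1.12 and 1.12 in vehicle and 0.715, 0.733 and 0.748 in JGT 500, below all 12 other libraries. Its mean was 1.05 ± 0.0287 in non-treated cells, 1.03 ± 0.0204 at JGT 20 and 0.996 ± 0.0241 at JGT 100. In both of these ratios the non-treated libraries lay below all those of vehicle. For Col5a1 to Col5a2 the non-treated libraries overlapped with JGT 20. Both type I chains fell, Col1a1 by more than Col1a2. The ratio of Col1a1 to Col1a2 was 0.880 ± 0.0298 in non-treated cells, 0.835 ± 0.00893 in vehicle and 0.752 ± 0.0384 in JGT 500. The JGT 500 values of that ratio also lay below all others. The ratios were not tested, for the same reason as the shares.

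**Figure D4:**
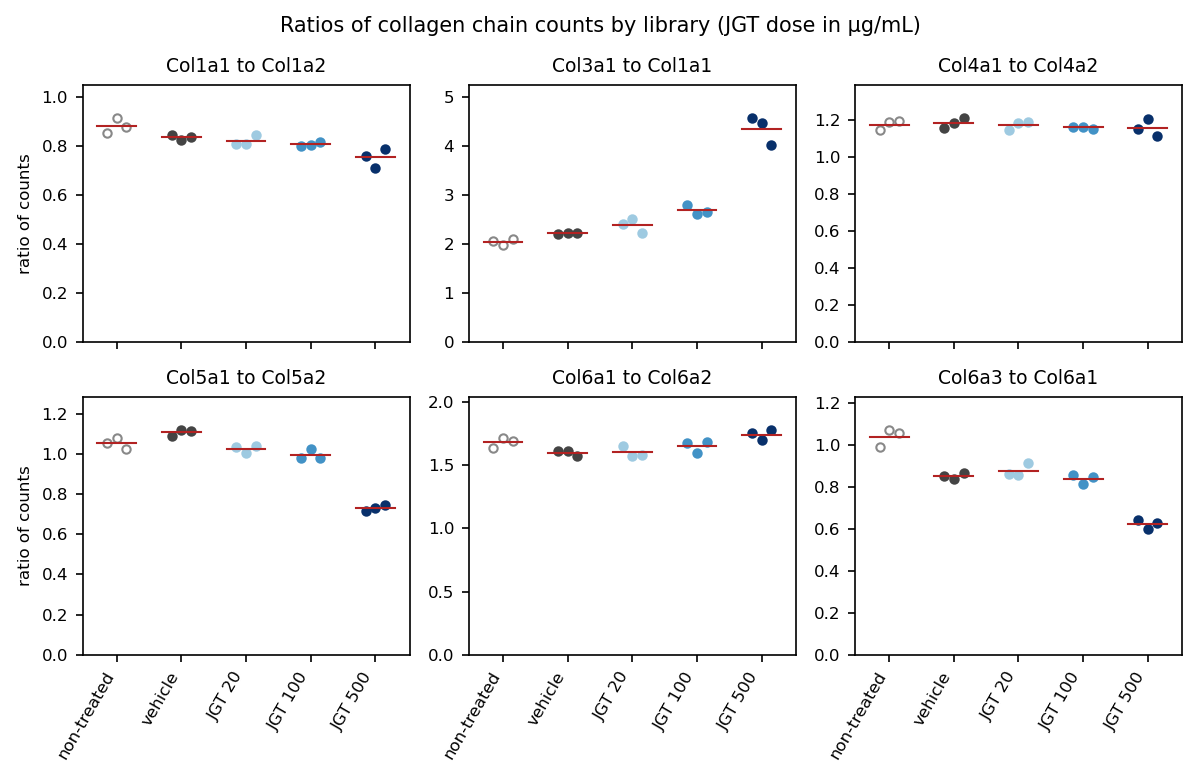
Ratio of counts between pairs of collagen genes in each library, by group, on linear axes from 0; dots are libraries and red lines means of 3. In JGT 500, Col3a1 to Col1a1 is 4.03 to 4.57 and Col5a1 to Col5a2 0.715 to 0.748, apart from all other libraries, while Col4a1 to Col4a2 overlaps between groups.

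The chief basement membrane chains did not follow. Col4a1 and Col4a2 encode the α1 and α2 chains of the common type IV trimer. Col4a1 stood at 468, 465 and 453 CPM in vehicle and at 460.0, 432 and 460.0 CPM in JGT 500, overlapping, with a log2 fold change of −0.04 ± 0.0388 (adjusted p = 0.512). Col4a2 stood at 404, 392 and 374 CPM in vehicle and at 399.7, 359 and 414 CPM in JGT 500, with a log2 fold change of 0.00 ± 0.0463 (adjusted p = 0.969). Without JGT 500 replicate 2 the changes of Col4a1 and Col4a2 were −0.01 and 0.05, also not called. A p above the threshold does not show that the levels were equal. At JGT 100 both were at their lowest, Col4a1 at 405, 409 and 436 CPM and Col4a2 at 348, 351 and 377 CPM. Col4a1 was called lower than vehicle at that dose (−0.15 ± 0.0388, adjusted p = 0.0303). The ratio of Col4a1 to Col4a2 was 1.19 ± 0.0265 in vehicle and 1.16 ± 0.0465 in JGT 500, with overlapping libraries. Col4a5, a chain of other type IV trimers, was called lower at JGT 500 (−0.20 ± 0.0709, adjusted p = 0.0385), from 15.7 ± 1.47 to 13.7 ± 0.490 CPM. The call was lost without vehicle replicate 1 (−0.12, adjusted p = 0.225) and without any 1 JGT 500 library (adjusted p = 0.0536 to 0.0732). It was also lost with DESeq2 (adjusted p = 0.0694) and with library totals as the scaling (0.0619). The same held with only the 2 groups in the fit (0.103) and with non-treated cells as control (0.170), and the call held in 5 of 13 settings.

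Col4a1 and Col4a2 share a start region. On chromosome 8, Col4a1 runs from 11198423 to 11312826 on the minus strand and Col4a2 from 11312805 to 11449287 on the plus strand, so the genes are head to head with starts 21 bases apart. Their RefSeq windows (GRCm38.p6) overlap and are shown because neither gene was called at JGT 500 against vehicle. They are chr8:11312777-11313076 on the minus strand for Col4a1 and chr8:11312555-11312854 on the plus strand for Col4a2. Each is written 5′ to 3′ on the strand of its gene, and capitals have the same meaning as above.
Col4a1: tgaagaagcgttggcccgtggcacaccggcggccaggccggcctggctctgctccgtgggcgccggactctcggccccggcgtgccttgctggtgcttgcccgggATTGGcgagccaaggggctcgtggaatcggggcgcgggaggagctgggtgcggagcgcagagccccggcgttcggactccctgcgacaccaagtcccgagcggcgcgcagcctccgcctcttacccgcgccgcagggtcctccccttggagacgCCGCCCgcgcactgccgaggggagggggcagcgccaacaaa
Col4a2: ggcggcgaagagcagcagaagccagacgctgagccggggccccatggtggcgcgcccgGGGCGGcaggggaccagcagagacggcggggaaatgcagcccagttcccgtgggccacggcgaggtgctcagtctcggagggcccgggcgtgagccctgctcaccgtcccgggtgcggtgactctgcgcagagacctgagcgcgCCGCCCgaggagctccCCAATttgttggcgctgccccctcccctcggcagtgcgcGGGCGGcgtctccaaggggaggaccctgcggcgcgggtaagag
The Col4a1 window held CCAAT on the other strand at −145 and GGGCGG on the other strand at 9. The Col4a2 window held CCAAT at −32, and GGGCGG at −192, at 7 and, on the other strand, at −48. The match at 9 of Col4a1 and that at 7 of Col4a2 are the same bases, 11312812 to 11312817. G and C made up 74.0% and 73.7% of the windows. The 22 exonic bases that both genes share are fewer than the 100 bp of a read. Among the collagen genes, only Col3a1 and Col4a3 had counts that were not whole numbers.

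All 3 type VI genes that were tested fell, and they fell unequally. Col6a1, Col6a2 and Col6a3 encode the 3 chains of the classical type VI trimer, and Col6a3 has by far the longest message. Col6a1 was at 463, 465 and 462 CPM in vehicle and at 361, 339.8 and 356 CPM in JGT 500 (log2 −0.39 ± 0.0378, adjusted p = 7.90e-08). Col6a2 was at 287, 289 and 294 CPM in vehicle and at 206, 199.9 and 201 CPM in JGT 500 (log2 −0.52 ± 0.0345, adjusted p = 2.93e-10). Col6a3 was at 393, 388 and 400.4 CPM in vehicle and at 233, 204 and 224 CPM in JGT 500 (log2 −0.84 ± 0.0473, adjusted p = 2.62e-11). None of the groups overlapped, and JGT 500 replicate 2 was the lowest for each gene. Without it the log2 fold changes of Col6a1, Col6a2 and Col6a3 were −0.38, −0.52 and −0.79. The ratio of Col6a3 to Col6a1 was 1.04 ± 0.0420 in non-treated cells, 0.850 ± 0.0153 in vehicle and 0.624 ± 0.0225 in JGT 500. The JGT 500 libraries lay below all 12 others, and the non-treated libraries lay above all those of vehicle. The ratio of Col6a1 to Col6a2, neighbours on chromosome 10 on the same strand with 85161 bases between them, was 1.60 ± 0.0227 and 1.74 ± 0.0388. Non-treated cells differed from vehicle here: Col6a2 was at 264, 247 and 259 CPM and Col6a3 at 428, 452 and 464 CPM without treatment. Col6a2 was the only collagen gene called between vehicle and non-treated cells (0.18 ± 0.0344 higher in vehicle, adjusted p = 0.0125), while Col6a3 was not called (−0.19 ± 0.0467, adjusted p = 0.0519).

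The network-forming Col8a2 and the multiplexin Col18a1 had the 2 largest falls among the tested collagen genes, and the transmembrane Col13a1 the largest rise. Col8a1 and Col8a2 encode the chains of type VIII collagen, a short-chain network former. Col8a1 was at 234, 216 and 235 CPM in vehicle and at 130.0, 117 and 129 CPM in JGT 500, a log2 fold change of −0.87 ± 0.0479 (adjusted p = 1.95e-11). Col8a2 was at 28, 25.3 and 27.1 CPM in vehicle and at 12.2, 11.8 and 13.7 CPM in JGT 500, a log2 fold change of −1.10 ± 0.0804 (adjusted p = 1.83e-09). Neither gene's groups overlapped. Col10a1, which encodes the type X chain of growth-plate cartilage, was called higher at JGT 500 from a very low level, 1.13 ± 0.164 to 1.76 ± 0.303 CPM (0.65 ± 0.193, adjusted p = 0.0138). That call was lost without vehicle replicate 3 (0.52, adjusted p = 0.0797) and without JGT 500 replicate 2 (0.51, adjusted p = 0.0614). It was also lost with non-treated cells as control (0.39, adjusted p = 0.124), and Col10a1 shares exonic bases with Nt5dc1 on the other strand.

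Col18a1 encodes the type XVIII chain, a basement membrane proteoglycan whose C-terminal fragment is endostatin. It was at 98.0, 107 and 104 CPM in vehicle, 95.0, 91.9 and 103 CPM at JGT 20, 76.6, 76.1 and 84.4 CPM at JGT 100 and 48.2, 49.1 and 54.8 CPM at JGT 500. From vehicle to JGT 500 the log2 fold change was −1.03 ± 0.0549 (adjusted p = 1.22e-11), a level 0.491 of that in vehicle. JGT 100 libraries lay below all those of JGT 20 and vehicle, and JGT 500 libraries below those of JGT 100. Among the transmembrane collagens, Col13a1, found at the neuromuscular junction, was at 4.16, 3.16 and 3.10 CPM in vehicle and at 5.74, 5.74 and 7.87 CPM in JGT 500 (log2 0.88 ± 0.143, adjusted p = 7.48e-05). Col25a1, which in mice is needed for motor axons to innervate muscle, was at 6.90, 6.21 and 5.90 CPM in vehicle and at 8.81, 7.91 and 9.10 CPM in JGT 500 (log2 0.44 ± 0.0845, adjusted p = 4.36e-04). Col23a1 was at 7.88, 7.98 and 6.64 CPM in vehicle and at 4.31, 4.86 and 5.26 CPM in JGT 500 (log2 −0.64 ± 0.0939, adjusted p = 2.40e-05). Leaving out JGT 500 replicate 2, the log2 fold changes were −0.82 for Col8a1, −1.06 for Col8a2, −1.01 for Col18a1, 0.96 for Col13a1, 0.49 for Col25a1 and −0.66 for Col23a1, all called. The vehicle and JGT 500 groups did not overlap in any of these 3 transmembrane genes, while Col17a1, the hemidesmosome collagen of epithelia, was not called (−0.01 ± 0.180, adjusted p = 0.972).

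Of the 4 tested FACIT genes, which encode collagens that decorate fibrils, 2 were called lower and 2 were not called. Col12a1 stood at 769, 702 and 747 CPM in vehicle and at 699, 695 and 675 CPM in JGT 500. It was called lower (−0.10 ± 0.0376, adjusted p = 0.0447), and the JGT 500 libraries lay just below vehicle. The call was lost without vehicle replicate 1 or 3 and without JGT 500 replicate 1 or 3 (adjusted p = 0.167, 0.108, 0.0569 and 0.124), and with library totals as the scaling (−0.08, adjusted p = 0.0878). It was also lost with only the 2 groups in the fit (adjusted p = 0.163) and with non-treated cells as control (0.166), and held in 6 of 13 settings. Col16a1 was at 24.1 ± 0.455 CPM in vehicle and 20.1 ± 2.42 CPM in JGT 500 (−0.27 ± 0.0691, adjusted p = 0.00541). Leaving out JGT 500 replicate 2, Col12a1 (−0.11) and Col16a1 (−0.19) were still called. Col14a1 and Col22a1 were not called, nor were Col7a1, the anchoring fibril chain, and the minor Col26a1 and Col28a1. The level of Col14a1 was 5.10 ± 0.452 CPM in vehicle and 3.83 ± 1.22 CPM in JGT 500 (−0.40 ± 0.170, adjusted p = 0.0766). It was called lower without JGT 500 replicate 1 (−0.63, adjusted p = 0.00799).

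**Figure D5:**
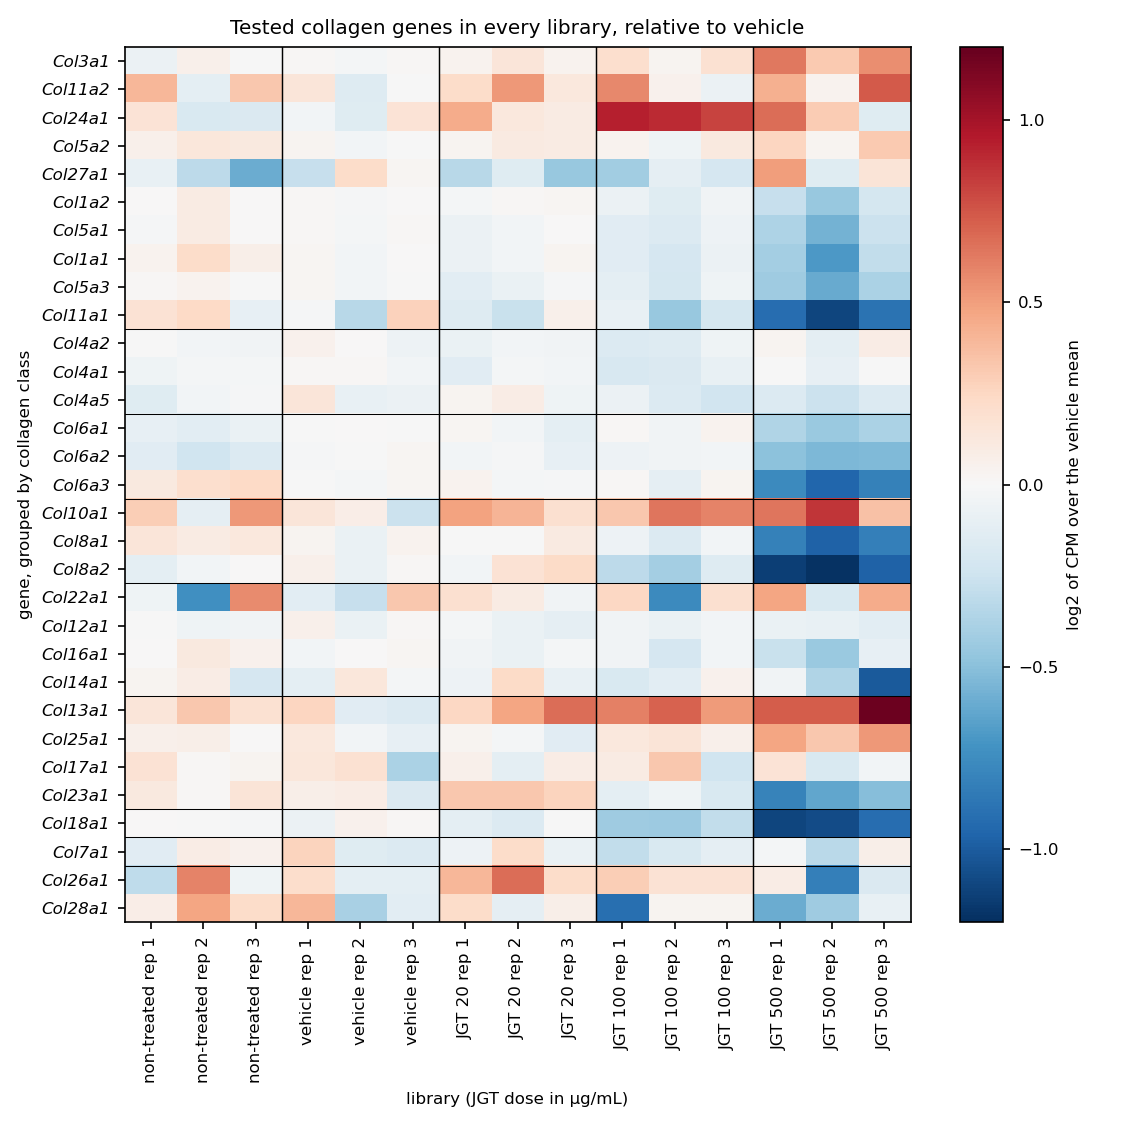
Log2 of CPM over the vehicle mean for the 31 tested collagen genes (rows, grouped by class) in all 15 libraries (columns); red is above and blue below the vehicle mean. The 15 genes called lower are blue in all 3 JGT 500 columns, Col8a2 and Col18a1 are also blue at JGT 100, and Col3a1 and Col13a1 are red at JGT 500.

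Fewer collagen genes were called at the lower doses. At JGT 20, no collagen gene was called against vehicle by edgeR (0 higher, 0 lower), where the test called 0.173% of all tested genes higher and 0.152% lower. At an unadjusted p below 0.05, 2 were higher and 0 lower, and DESeq2 called 0 in either direction. The former were Col13a1 (0.46 ± 0.147) and Col23a1 (0.31 ± 0.0869). Against non-treated cells, 1 gene was higher at JGT 20 (Col6a2) and 1 lower (Col6a3). At JGT 100, 2 genes rose and 3 fell, where the test called 2.09% of tested genes higher and 2.22% lower. Col24a1, a minor fibrillar chain, rose from 1.87 ± 0.200 to 3.45 ± 0.148 CPM (0.88 ± 0.165, adjusted p = 0.00315) and Col13a1 from 3.47 ± 0.594 to 5.31 ± 0.376 CPM (0.61 ± 0.144, adjusted p = 0.0169). Col18a1 (−0.39 ± 0.0534, adjusted p = 1.60e-04), Col8a2 (−0.29 ± 0.0746, adjusted p = 0.0281) and Col4a1 fell. With only the 2 groups in the fit, 7 genes were lower at JGT 100. Single libraries decided 3 of the 5 calls. Col13a1 was lost without vehicle replicate 2 or 3 or JGT 100 replicate 1 or 2 (adjusted p = 0.0956, 0.115, 0.0583 and 0.0889). Col8a2 was lost without vehicle replicate 1 or 3 or JGT 100 replicate 1 or 2 (adjusted p = 0.132, 0.111, 0.107 and 0.162). Col4a1 was lost without any vehicle library (adjusted p = 0.107, 0.128 and 0.0631 in order) or without JGT 100 replicate 1 or 2 (adjusted p = 0.145 and 0.138). The 3 comparisons with vehicle share the same 3 vehicle libraries, so the values of a gene at the different doses are not independent.

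The steps between doses do not use the control libraries. From JGT 20 to JGT 100, 3 collagen genes fell and 0 rose, where the test called 0.131% of all tested genes lower and 0.297% higher. At an unadjusted p below 0.05, 6 were lower and 1 higher, and DESeq2 called 3 lower and 0 higher. The 3 were Col8a2 (−0.42 ± 0.0735, adjusted p = 0.00988), Col18a1 (−0.29 ± 0.0533, adjusted p = 0.0147) and Col23a1 (−0.42 ± 0.0857, adjusted p = 0.0281). The count was 0 without JGT 100 replicate 1, JGT 100 replicate 2 or JGT 20 replicate 3, and 1 without JGT 20 replicate 2. It was 2 without JGT 100 replicate 3 or JGT 20 replicate 1.

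From JGT 100 to JGT 500, 13 collagen genes fell and 4 rose, where the test called 10.7% of all tested genes lower and 9.05% higher. The median log2 fold change was −0.18 over the collagen genes and 0.00 over all tested genes. The genes that fell included Col6a3 (−0.82 ± 0.0472, adjusted p = 1.16e-10), Col8a2 (−0.81 ± 0.0804, adjusted p = 3.76e-07), Col8a1 (−0.78 ± 0.0477, adjusted p = 2.79e-10) and Col18a1 (−0.64 ± 0.0548, adjusted p = 3.27e-08). Col11a1, Col24a1, Col23a1, Col6a2, Col6a1, Col5a3, Col1a1, Col5a1 and Col1a2 fell by 0.72 to 0.23 on the log2 scale. Col24a1 thus fell back from its JGT 100 level, to 2.33 ± 0.639 CPM. Col3a1 rose by 0.37 ± 0.0648 (adjusted p = 5.40e-04) and Col25a1 by 0.32 ± 0.0818 (adjusted p = 0.00799). Col5a2 (0.17 ± 0.0572, adjusted p = 0.0414) and Col4a1 (0.11 ± 0.0388, adjusted p = 0.0447) were also called higher, with overlapping groups. Col4a1 lost this call with a replicate block (adjusted p = 0.0512), with no filter on low counts (0.0762) and with only the 2 groups in the fit (0.173). Col5a2 lost it with no filter (adjusted p = 0.0895) and with only the 2 groups (0.191). That last fit also lost Col1a1 (adjusted p = 0.0559), Col1a2 (0.0649) and Col24a1 (0.0727). The count of genes that rose was 2 without JGT 500 replicate 1, JGT 500 replicate 3, JGT 100 replicate 1 or JGT 100 replicate 2, each of which lost both Col4a1 (adjusted p = 0.152 to 0.193) and Col5a2 (0.106 to 0.219), and 7 without JGT 500 replicate 2. The call of Col24a1 was lost without JGT 100 replicate 1 (adjusted p = 0.0508) and without JGT 500 replicate 3 (adjusted p = 0.0988). Between vehicle and non-treated cells, 1 collagen gene was called higher and 0 lower, where edgeR called 0.553% of tested genes higher and 0.754% lower. At an unadjusted p below 0.05, 2 were higher and 2 lower, and DESeq2 called 1 lower. The call, Col6a2, was lost without any 1 of the 6 libraries other than non-treated replicate 1 (adjusted p = 0.0525 to 0.0794).

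The genes that handle collagen chains were described by counts and medians for JGT 500 against vehicle. Over all tested genes the median was 0.01, with 16.5% called higher and 16.8% lower, and counts near those shares are not a result about a list. Of 14 tested genes for hydroxylases, glycosyltransferases and members of their complexes in the endoplasmic reticulum, 1 rose and 3 fell, with a median of 0.00. P4ha1, a prolyl 4-hydroxylase subunit, rose (0.20, adjusted p = 0.00157), and P3h4 (−0.25), Crtap (−0.18) and Ppib (−0.11), members of complexes that modify the chains, fell. Leaving out JGT 500 replicate 2, 2 of the 14 rose and 5 fell. Of 12 tested genes for collagen chaperones and export, 8 fell and 2 rose, with a median of −0.16. Serpinh1, which encodes the collagen chaperone HSP47, fell from 773 to 525 ± 82.1 CPM (−0.56 ± 0.0862, adjusted p = 2.37e-04), and Fkbp10, a prolyl isomerase, by 0.39 (adjusted p = 5.09e-07). Sec23a (−0.17) and Sec24d (−0.22), coat proteins of export vesicles, also fell, while Klhl12 (0.35), which enlarges those vesicles, and Tmem38b (0.18), an endoplasmic reticulum cation channel, rose. Without JGT 500 replicate 1 or replicate 3, 1 of the 12 rose.

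Outside the cell, 4 of 6 tested procollagen processing genes fell and 1 rose, with a median of −0.22, where 16.8% of all tested genes fell and 16.5% rose. Pcolce, which enhances C-propeptide cleavage, fell from 407 to 306 ± 13.2 CPM (−0.41 ± 0.0350, adjusted p = 1.45e-08), as did Pcolce2 (−0.22) and the proteinases Bmp1 (−0.21) and Adamts2 (−0.21), while Adamts14 rose (0.13). Of 5 cross-linking genes of the lysyl oxidase family, 3 fell and 1 rose, with a median of −0.45. Loxl1 fell from 345 to 237 ± 13.1 CPM (−0.54 ± 0.0383, adjusted p = 8.02e-10), Loxl2 by 0.45 and Loxl4 by 0.49, Loxl3 rose by 0.26, and Lox itself was not called (0.04). Of 5 tested genes for degradation and uptake, Mmp14 (−0.32) and the uptake receptor Mrc2 (−0.33) fell, and the collagenase gene Mmp13 rose from 0.719 to 2.18 ± 0.213 CPM (1.60 ± 0.215, adjusted p = 8.10e-06). Their median was 0.02, and 2 rose without JGT 500 replicate 2. Of 6 tested collagen receptors, 2 fell and 1 rose, with a median of −0.16, and the count that rose is at the share over all tested genes. Itga11, the α11 subunit of a fibrillar collagen integrin, fell from 21.7 to 10.7 ± 0.235 CPM (−1.02 ± 0.0695, adjusted p = 4.57e-10) and Ddr1 by 0.26, while Itga10 rose by 0.17. Without JGT 500 replicate 3, 0 receptors rose.

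Other basement membrane genes moved in both directions, with 7 of 18 tested members lower, 4 higher and a median of 0.01, where 16.8% of all tested genes were lower and 16.5% higher. The nidogen genes Nid1 (0.33, adjusted p = 1.46e-07) and Nid2 (0.39, adjusted p = 1.89e-08), which link laminin to type IV collagen, rose, as did the laminin genes Lama4 (0.27) and Lamb2 (0.16). Among those that fell were Smoc2 (−1.46 ± 0.0992, adjusted p = 4.30e-10), a matricellular gene, and Lamb3 (−0.40, adjusted p = 5.73e-06). Of 15 genes of TGF-beta signalling, a main inducer of fibrillar collagen genes, 5 fell and 2 rose, with a median of −0.07, against the same shares of all tested genes. The ligand gene Tgfb2 fell by 0.51 (adjusted p = 1.59e-08), as did Tgfb3 (−0.10), the receptor-activated Smad2 (−0.11), and 2 feedback inhibitors, Smad7 (−0.26) and Skil (−0.22). The co-receptor Tgfbr3 (0.38) and Smad3 (0.19) rose. The count that fell was 3 without JGT 500 replicate 1 or replicate 3.

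Markers of other cells moved beside the collagen genes at JGT 500, and their part in the collagen changes was not tested. Marker counts stand against 16.8% of all tested genes lower and 16.5% higher. All 10 markers of proliferating cells fell, and their summed level was 451 to 465 CPM in vehicle, 421 to 433 at JGT 20, 381 to 387 at JGT 100 and 239 to 247 at JGT 500. Of 8 tenocyte markers, 5 were tested and 3 fell, with summed levels of 1149 to 1157 CPM in vehicle, 953 to 1062 at JGT 100 and 537 to 556 at JGT 500. Tnc made up most of that sum (843 CPM in vehicle, −1.57 ± 0.0465), and Fmod, which encodes a collagen-binding proteoglycan, fell by 2.12. Egr1 also fell, while Scx (135 CPM in JGT 500) and Mkx were not called, and Tnmd and Kera were at or near 0. Fibroblast markers overlapped between groups, at 1626 to 1745 CPM in vehicle and 1303 to 1683 CPM in JGT 500. Of 10 tested, 3 fell (Pdgfrb, Dpt and Postn) and 2 rose (Pdgfra and Ly6a), and Thy1 and Tcf21 were at or near 0. Markers of myoblasts, reserve and satellite cells also overlapped, at 2359 to 2427 and 2256 to 2499 CPM, with 4 of 12 lower and 2 higher. Osteoblast markers summed to 1128 to 1194 CPM in vehicle and 1479 to 1542 CPM in JGT 500, nearly all of it Spp1, with 2 of 5 tested higher, 3 lower, and Ibsp and Dlx5 at 0. Adipocyte markers summed to 53.8 to 56.1 CPM in vehicle and 112 to 123 CPM in JGT 500, with 5 of 5 tested higher. The JGT 500 sum was mostly Lpl (76.4 CPM) and Cebpa (25.8 CPM). Adipoq, Plin1 and Fabp4 had only 2, 1 and 21 counts over all 15 libraries, Cidec and Cfd were at 0, and none of these was tested. Chondrocyte markers summed to 50.2 to 53.0 and 49.4 to 52.5 CPM, with Matn1 at 0 and 1 of 2 tested lower. Of 16 myotube markers, 6 fell and 4 rose, and their sums overlapped.

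The other 13 collagen genes had too few counts to test. Summed over all 15 libraries, Col19a1 had 105 counts, Col15a1 102, Col4a4 90, Col4a3 63, Col20a1 51, Col4a6 47, Col6a4 44, Col9a3 35, Col2a1 26, Col6a5 19, Col6a6 6, and Col9a1 and Col9a2 1 each. At this depth no difference between groups could be detected in them. They include all 3 type IX genes, the type II gene of cartilage, and every type IV and type VI chain other than Col4a1, Col4a2, Col4a5, Col6a1, Col6a2 and Col6a3.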

How the data were processed

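RNA was sequenced from 15 libraries of C2C12 myotubes in 5 groups of 3, as paired reads of 100 bp from a directional mRNA kit, per the labels' protocols. Per the submitters' processing notes, RSEM 1.3.3, STAR 2.7.3a, Trim Galore 0.6.5 and FastQC 0.11.9 were used, and the build was GRCm38 (mm10). What each tool did, which annotation was used and whether counting took account of strand were not given in the sources used here. Values in the table the authors deposited are expected counts, 1 row per gene symbol, with no normalisation. Groups were taken from the treatment named in the labels, and every column was matched to its library by name.

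Counts were rounded to whole numbers, since 9.34% were not whole within a tolerance of 0.005. Genes were filtered with filterByExpr of edgeR 4.0.16 (R 4.3.3), and TMM factors were 0.988 to 1.02. All 15 libraries entered 1 quasi-likelihood fit with a mean per group and 10 residual degrees of freedom (common dispersion 0.00282). Each test was the two-sided quasi-likelihood F test with Benjamini-Hochberg adjustment over 14461 genes, and a gene was called at an adjusted p below 0.05. CPM values are scaled by TMM and given with their SD (n = 3), and fold changes with the SE of the fit. Gene positions and transcript lengths came from GENCODE (GRCm38) and start-site windows from RefSeq (GRCm38.p6). The table lists P3h4 as Leprel4, Snorc as 3110079O15Rik and Cnmd as Lect1.

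The alternatives were RLE factors, library totals, no filter, DESeq2 1.42.0, a fit of only the 2 groups compared, a replicate block, non-treated cells as control and leaving out each library. For the lists of other genes, only non-treated cells as control and leaving out each JGT 500 library were run. The text gives values in every library for the type I, III and VI genes, the leading type IV and V genes and the 8 other collagen genes with the smallest p at JGT 500. Of each other list it names the 4 members with the smallest p and all members of small counts. The members, lists and tests were chosen with earlier results of these data known.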

Additional observations from a re-analysis of the deposited data

How the results depend on the processing

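Of the 20 collagen calls at JGT 500 against vehicle, 16 (3 higher, 13 lower) held in all 13 alternative settings, and Col5a2, Col10a1, Col12a1 and Col4a5 were lost in some. Held calls numbered 12 of 17 from JGT 100 to JGT 500 (Col1a1, Col1a2, Col24a1, Col4a1 and Col5a2 were lost in some), 2 of 5 at JGT 100 (Col18a1 and Col24a1), 0 of 3 from JGT 20 to JGT 100 and 0 of 1 between vehicle and non-treated cells. With non-treated cells as control, 3 collagen genes rose at JGT 500 in place of 5, and JGT 20 had 1 higher and 1 lower in place of 0. Against that control Col6a2 was higher at JGT 20 (0.13, adjusted p = 0.0370) and at JGT 100 (0.13, adjusted p = 0.0179) and Col6a3 lower at JGT 20 (−0.18, adjusted p = 0.0355), opposite in sign to the uncalled changes against vehicle. The hydroxylase list then had 0 higher, the chaperone list 1 and the degradation list 2. With only the 2 groups compared in the fit, 2 collagen genes were higher and 2 lower in vehicle against non-treated, 7 were lower at JGT 100 against vehicle, 1 was higher at JGT 100 against JGT 20 and 2 were higher at JGT 500 against JGT 100. With no filter on low counts the last counts were 1 and 2. The count lower in vehicle against non-treated was 1 under RLE factors, no filter, DESeq2 and the replicate block.

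Leaving out each library in turn gave, at JGT 500 against vehicle, 4 to 5 higher and 13 to 15 lower, and at JGT 500 against JGT 100, 2 to 7 higher and 12 to 14 lower. It gave 1 to 2 higher and 1 to 3 lower at JGT 100 against vehicle, 0 to 2 lower at JGT 100 against JGT 20 and 0 to 1 higher in vehicle against non-treated. For the lists at JGT 500 against vehicle, only the JGT 500 libraries were left out in turn, and no vehicle library was. That gave 1 to 2 genes of the hydroxylase list higher and 2 to 5 lower, 1 to 3 chaperone genes higher and 1 to 2 degradation genes higher. It also gave 0 to 1 receptor genes higher, 3 to 6 other basement membrane genes higher and 3 to 4 TGF-beta genes lower. The cause of these shifts was not tested.

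Whether replicate numbers pair the libraries was not settled. Deviations of same-numbered libraries from their group means correlated at −0.324 to 0.119 over 30 pairs, 4 of them over 0.1. Correlations over all genes from groups of 3 cannot show that pairing is absent. A fit with the replicate block gave 5 higher and 15 lower at JGT 500 against vehicle, 2 and 3 at JGT 100, 0 and 3 for JGT 100 against JGT 20, and 3 and 13 for JGT 500 against JGT 100. The spread is estimated over all groups and may be too small for JGT 500, whose libraries differed most. Genes under about 2 CPM, such as Col10a1, rest on few counts, and depth gave no test for 13 genes.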
